A study of Mus musculus with 8 samples.

Results

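The nuclear-encoded subunits of the respiratory chain were followed in mouse hearts after transverse aortic constriction (TAC), an operation that narrows the aorta and loads the left ventricle. The members were chosen by gene symbol, as those that begin with Nduf (without the Ndufaf assembly factors), Uqcr, Cox4 to Cox8 or Atp5, together with Sdha, Sdhb, Sdhc, Sdhd and Cyc1, and the symbol Ndufb1-ps was left out. The rule gave 86 of the 32285 listed genes, sorted by symbol alone into 38 for complex I, 4 for complex II, 9 for complex III, 18 for complex IV and 17 for complex V. The animals were male C57BL/6J mice, 8 weeks old and with no allele named, and each had sham surgery or TAC. Hearts were taken 2 weeks (TAC-2w), 4 weeks (TAC-4w) or 6 weeks (TAC-6w) after TAC, and no time is given for sham. Values listed without a group are in the order of time, with sham first. Each of these 4 groups had 1 Visium section, which counts transcripts in spots that can hold several cells, and 1 single-cell RNA library, and the labels do not say how many animals gave each. With 1 sample a group no comparison between groups has a replicate check or a test, and all intervals below are 95% intervals that cover counting error only.

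The respiratory chain passes electrons from complex I (NADH dehydrogenase) and complex II (succinate dehydrogenase) through complex III (the cytochrome bc1 complex) to complex IV (cytochrome c oxidase), and the proton gradient built on the way drives complex V, the ATP synthase. The proteins of complexes I, III, IV and V come from both nuclear and mitochondrial DNA, whereas complex II is wholly nuclear. Heart muscle is packed with mitochondria, and it uses muscle isoforms of several subunits of complex IV.

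The sections had 25996378 to 48754396 UMIs (transcripts counted once each by a molecular identifier) over 1228 to 2193 spots, and the libraries had 28793316 to 86671674 UMIs. Transcripts of mitochondrial DNA, whose symbols begin with mt-, were 51.5% of the UMIs of the sham section and 42.2% to 44.2% of those after TAC. The level of a gene is therefore given per 1000000 UMIs without the mt- genes (CPM). By the labels the sham and TAC-2w sections share batch 1, while the TAC-4w section is batch 2 and the TAC-6w section batch 3, so that for the latter pair batch and time cannot be told apart. Among the libraries sham and TAC-6w share batch 3, TAC-2w is batch 1 and TAC-4w batch 2. The sections held the 6 defining cardiomyocyte markers at a summed level of 34303 to 48514 CPM, and any 2 libraries shared 9 to 30 cell barcodes.

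Before the values, the promoters of the genes for subunit c of the ATP synthase and for subunit 8 of complex IV are shown, because these genes code for closely related products and the largest ratios below include Cox8a and Atp5g2. Of the 86 members, 68 matched a RefSeq promoter by symbol (build GRCm38.p6), and the 250 bases before each start are written 5′ to 3′ on the gene's strand, which is the minus strand in each case. They lie at chr11:96075632-96075881 for Atp5g1, chr15:102671048-102671297 for Atp5g2, chr2:73911327-73911576 for Atp5g3, chr19:7217617-7217866 for Cox8a and chr7:140900447-140900696 for Cox8b. Capitals mark a match to 1 of 5 motifs searched on both strands, namely CGCATGCG (NRF1), CCGGAAGT (GABP or another ETS factor), TCAAGGTCA (ERR), AAGATGGCG (YY1) and the motif of MEF2.
Atp5g1: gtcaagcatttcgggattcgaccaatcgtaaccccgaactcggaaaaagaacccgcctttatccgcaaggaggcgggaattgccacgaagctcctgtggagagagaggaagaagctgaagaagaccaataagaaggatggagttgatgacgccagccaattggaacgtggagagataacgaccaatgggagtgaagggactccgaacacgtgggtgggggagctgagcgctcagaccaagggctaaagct
Atp5g2: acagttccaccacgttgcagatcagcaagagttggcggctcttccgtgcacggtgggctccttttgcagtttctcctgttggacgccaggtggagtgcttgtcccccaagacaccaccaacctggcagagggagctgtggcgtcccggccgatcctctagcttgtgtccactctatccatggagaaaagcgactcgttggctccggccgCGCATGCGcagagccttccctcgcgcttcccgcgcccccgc
Atp5g3: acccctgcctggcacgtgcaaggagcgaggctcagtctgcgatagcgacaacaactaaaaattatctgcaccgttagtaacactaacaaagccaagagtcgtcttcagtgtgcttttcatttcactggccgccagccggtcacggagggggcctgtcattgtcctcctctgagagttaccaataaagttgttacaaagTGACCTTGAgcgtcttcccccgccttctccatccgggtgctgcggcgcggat
Cox8a: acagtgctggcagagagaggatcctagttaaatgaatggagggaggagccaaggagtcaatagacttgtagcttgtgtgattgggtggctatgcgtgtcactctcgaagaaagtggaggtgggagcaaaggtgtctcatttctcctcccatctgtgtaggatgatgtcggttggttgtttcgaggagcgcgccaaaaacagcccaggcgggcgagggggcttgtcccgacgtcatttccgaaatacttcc
Cox8b: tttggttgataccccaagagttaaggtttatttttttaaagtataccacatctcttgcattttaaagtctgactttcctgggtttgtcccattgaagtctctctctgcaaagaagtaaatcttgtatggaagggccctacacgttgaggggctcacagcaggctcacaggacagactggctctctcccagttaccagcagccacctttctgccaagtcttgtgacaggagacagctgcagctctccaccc
Atp5g2 held the NRF1 letters 41 bases before its start, and Atp5g3 held the ERR letters on the opposite strand 52 bases before its start. The stretches of Atp5g1, Cox8a and Cox8b shown had no match. In the whole window of 300 bases, from 250 before to 50 after the start, the NRF1 letters were in 9 of 68 members (13.2%) and in 2.07% of the 27025 genes listed. The YY1 letters were in 7 members (10.3%) against 1.64% of all genes, and the ERR letters in 2 members (2.94%), Atp5g3 and Sdhd, against 0.466%. The GABP letters were in 5 members (7.35%) against 4.31%, with 1 match of Cox8a spanning its start and 1 after it, and the MEF2 motif was in no member and in 0.636% of all genes. These matches describe letters in the sequence, and binding was not measured.

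In the sections the members made up 15.2% of the UMIs without mt- genes at sham and 17.9%, 14.0% and 13.6% after 2, 4 and 6 weeks of TAC. The section of TAC-2w was the highest and that of TAC-6w the lowest. Against sham the summed level was 1.18 times (1.176 to 1.180), 0.922 times (0.920 to 0.924) and 0.899 times (0.898 to 0.901) in the 3 TAC sections. The direction at TAC-2w was the same under each other scaling tried, whereas TAC-4w and TAC-6w turned to 1.10 and 1.04 with the mt- genes in the total and to 1.26 and 1.03 relative to 9 sarcomere genes. Both scalings multiply all ratios of a section by 1 factor above 1, so that ratios to sham above 1 given below hold under them, while those below 1 are on the CPM scale without mt- genes and can turn. The sarcomere genes themselves were at 0.928, 0.734 and 0.878 times sham, and the part of this in the result was not tested. In bulk sections fewer cells of a type and less RNA per cell cannot be told apart.

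Summed over their members, all 5 complexes lay above sham at TAC-2w and below sham at TAC-4w and TAC-6w on the CPM scale without mt- genes. The later directions turned under the scalings above except for complex II at TAC-6w. Complex V at TAC-6w came out about level with sham relative to the sarcomere genes. Complex IV took 4.11%, 5.13%, 4.02% and 3.64% of the UMIs from sham to TAC-6w, which is 1.25, 0.977 and 0.884 times sham. For complex I the shares were 4.09%, 4.81%, 3.79% and 3.82%, with ratios of 1.18, 0.926 and 0.933. For complex III they were 1.64%, 1.95%, 1.45% and 1.51%, with ratios of 1.19, 0.886 and 0.926. Complex IV thus had the largest ratio to sham of the 5 at TAC-2w. Complex V, the most abundant by UMIs, was at 4.98%, 5.60%, 4.42% and 4.38%, with ratios of 1.12, 0.888 and 0.879. Complex II was the least abundant at 0.350%, 0.379%, 0.309% and 0.300%, with ratios of 1.08, 0.883 and 0.859.

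Members are counted as past the fold where their CPM differed from sham by 1.2-fold or more, among genes with 100 or more UMIs in either section. At TAC-2w 40 of 84 members were higher, where 7.80% of all genes were, and 1 was lower, where 36.5% of all genes were. The median ratio was 1.19 over the members and 0.890 over all genes, so that relative to the median gene the members stood at 1.34. At TAC-4w 22 of 83 members were lower and 3 higher, against 21.5% and 17.8% of all genes, and the medians were 0.922 and 0.976. At TAC-6w 10 of 83 were lower and 3 higher, against 8.67% and 26.1%, and the medians were 0.937 and 1.07. With all features in the total, mt- genes included, these counts became 3 lower and 24 higher at TAC-4w and 0 lower and 8 higher at TAC-6w, and relative to the median gene 13 and 26 were lower. The shares of all genes under these other settings were not counted, so these counts have no background to be read against. Where a ratio in a section is called the largest or smallest below, it is among the members counted here. On the CPM scale without mt- genes, the shares of members that were lower at TAC-4w (26.5%) and TAC-6w (12.0%) are near those of all genes, and the shares that were higher lie under them. Of 84 members, 73 had their highest CPM in the TAC-2w section, and the lowest was in the TAC-4w section for 42 and in the TAC-6w section for 32. The same was not counted over all genes, so these counts are not shown to be particular to the members, and they are on this CPM scale. The 3 TAC comparisons share the sham section.

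**Figure D1:**
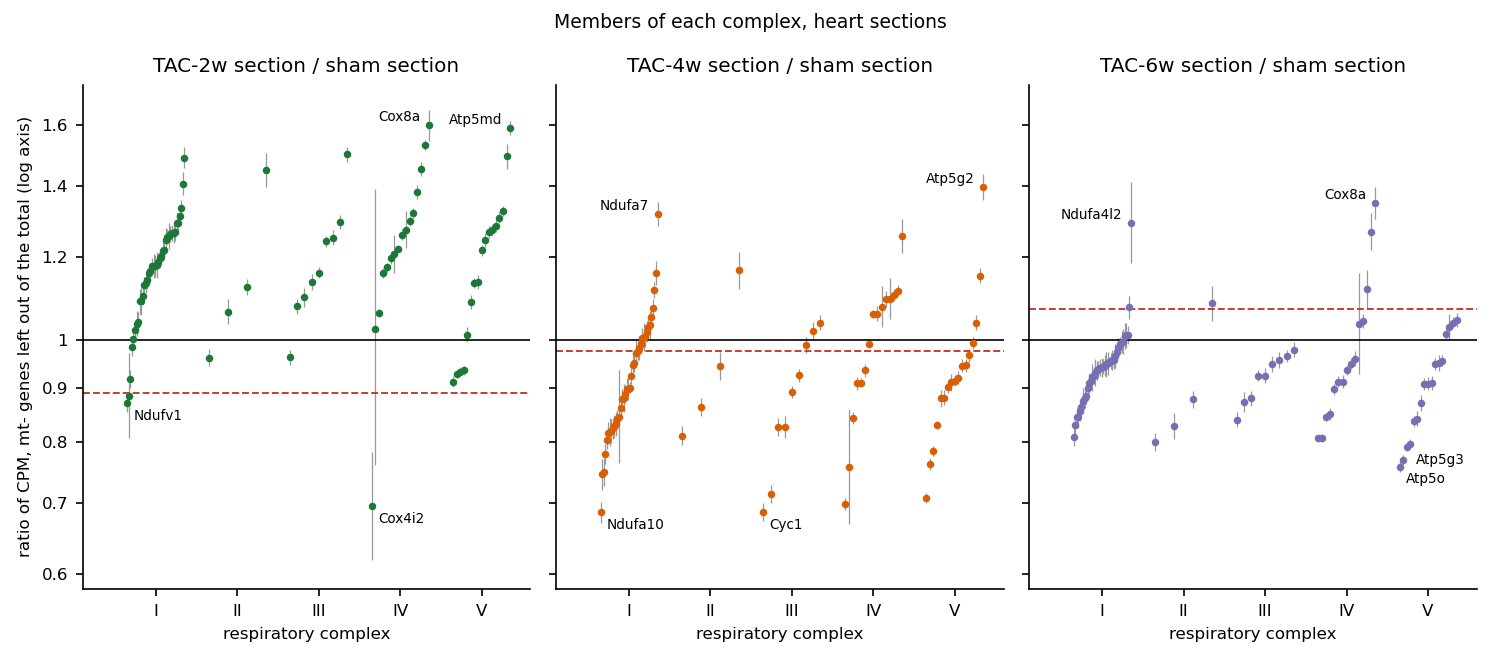
Ratio of CPM to sham on a log axis for each member with 100 or more UMIs (points, with 95% counting intervals), by complex, in the 3 TAC sections in order of time, with the median of all genes as a dashed line. The medians of the members are 1.19, 0.922 and 0.937 without mt- genes in the total, and the values under 1 at TAC-4w and TAC-6w depend on that scaling.

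Complex I collects electrons from NADH in a catalytic core that accessory subunits surround. Ndufa4, which was first assigned to complex I and is now placed with complex IV, had the most UMIs under the Nduf symbols at 3592, 4261, 3238 and 3423 CPM from sham to TAC-6w. Ndufv1, the subunit that binds NADH, was at 1190, 1037, 1162 and 963 CPM. It was among the lowest members at TAC-2w (0.871 times sham, 0.854 to 0.889), below sham in each TAC section on this CPM scale. Ndufa10, an accessory subunit, was at 1190, 1093, 817 and 1029 CPM, and its 0.686 times sham at TAC-4w (0.671 to 0.702) was the smallest ratio of that section. Ndufb4 was at 742, 1106, 859 and 739 CPM and Ndufa7 at 650, 916, 857 and 628 CPM. Both are accessory subunits, and both were above sham at TAC-2w and TAC-4w, Ndufa7 by 1.32 times at TAC-4w (1.28 to 1.35).

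Complex II oxidises succinate in the flavoprotein Sdha, passes electrons through the iron-sulphur protein Sdhb and is held in the membrane by Sdhc and Sdhd. Sdha was at 1270, 1223, 1031 and 1016 CPM, and Sdhb at 1359, 1527, 1174 and 1194 CPM. Sdhc was at 576, 613, 544 and 478 CPM. Sdhd was at 292, 423, 340 and 316 CPM, above sham in each TAC section with ratios of 1.45, 1.16 and 1.08. The shares within the complex differed from sham in opposite directions, with Sdha at 36.3%, 32.3%, 33.4% and 33.8% of complex II and Sdhd at 8.35%, 11.2%, 11.0% and 10.53%.

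In complex III, Uqcrq, a small subunit near the quinone site, had the most UMIs at 2917, 3383, 2603 and 2700 CPM. Cyc1, the cytochrome c1 that hands electrons to cytochrome c, was at 1680, 1809, 1153 and 1480 CPM, or 0.686 times sham at TAC-4w (0.6735 to 0.6996). Uqcrc1, a core protein of the matrix side, was at 1707, 1643, 1219 and 1435 CPM and 0.714 times at TAC-4w. Both had their lowest level in the TAC-4w section. Uqcrb, a small subunit, was at 1404, 2109, 1433 and 1345 CPM, and its ratio of 1.502 at TAC-2w (1.477 to 1.528) was among the 5 largest.

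In complex IV the muscle isoform Cox6a2 had the most UMIs, with 7876, 9622, 8342 and 6352 CPM, and the other muscle isoforms Cox7a1 and Cox8b were at 3452, 4480, 2412 and 3100 CPM and at 2868, 3788, 3163 and 2725 CPM. Cox8a, the common form of subunit 8, was at 344, 550, 432 and 464 CPM. It was above sham in all 3 TAC sections, by 1.5999 (1.547 to 1.655), 1.255 (1.210 to 1.303) and 1.351 times (1.305 to 1.398), the largest ratio at TAC-2w and TAC-6w of the members with 100 or more UMIs in either section. Cox6a1, the common form of subunit 6a, was at 249, 317, 272 and 315 CPM. Cox7c, a small subunit, was at 3420, 5243, 3809 and 3205 CPM, 1.53 times sham at TAC-2w. Cox7a2l, a relative of Cox7a2 that is not a subunit of the single enzyme, was at 250, 302, 269 and 280 CPM. Cox4i2, a form of subunit 4 known from lung and low oxygen, was at 37.4, 26.0, 28.3 and 38.8 CPM, and its 0.696 times sham at TAC-2w (0.618 to 0.783) was the smallest ratio there. Cox7b2 had 4, 12, 15 and 17 UMIs in all, and Cox8c had 0 in each section, where its 95% interval at sham reaches 0.293 CPM.

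In complex V the F1 head that makes ATP is formed by Atp5a1, Atp5b, Atp5c1, Atp5d and Atp5e, and subunit c of the rotor comes from 3 genes, Atp5g1, Atp5g2 and Atp5g3, that code for the same mature protein. Atp5b, the catalytic beta subunit, was at 6481, 6014, 5386 and 5125 CPM, and Atp5a1, the alpha subunit, at 5462, 5098, 4284 and 4355 CPM. Atp5o, which links the head to the stalk, was at 3032, 2768, 2312 and 2299 CPM and had the smallest ratio at TAC-6w (0.758, 0.749 to 0.768) of the members with 100 or more UMIs in either section. These 3 genes were below sham in each TAC section on this scale. Atp5md, a small subunit of the membrane part, was at 1902, 3026, 2190 and 1986 CPM, with 1.59 times sham at TAC-2w (1.57 to 1.61). The 5 F1 genes together were at 0.990, 0.855 and 0.813 times sham and the 12 other members at 1.21, 0.908 and 0.919 times, so that F1 took 37.8% of complex V at sham and 33.3%, 36.4% and 34.95% in the TAC sections.

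The 3 genes for subunit c, whose promoters are shown above, differed in their ratios to sham. Atp5g3 was at 4614, 4320, 3266 and 3550 CPM, Atp5g1 at 3557, 4716, 3254 and 3697 CPM and Atp5g2 at 551, 823, 770 and 567 CPM. Of their summed UMIs, Atp5g3 made up 52.9% at sham and 43.8%, 44.8% and 45.4% in the TAC sections. Atp5g1 had 40.8%, 47.8%, 44.6% and 47.3%, and Atp5g2 6.31%, 8.35%, 10.6% and 7.25%. The share of Atp5g3 was thus lower and the shares of both other genes were higher in each TAC section than at sham, a comparison that no scaling to a total can turn.

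**Figure D2:**
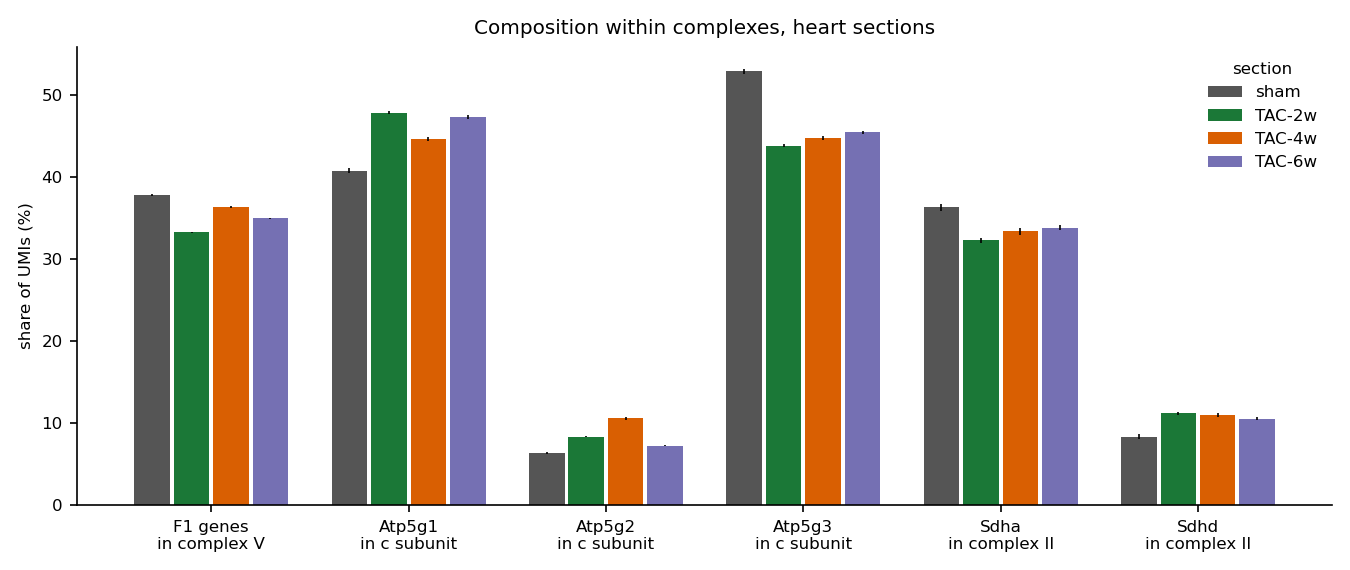
Share of UMIs (%) of gene groups within their complex or within the 3 genes for subunit c, for the 4 sections in order of time (bars, with 95% counting intervals). Atp5g3 is at 52.9% at sham and between 43.8% and 45.4% in the TAC sections, and F1 genes are at 37.8% at sham and between 33.3% and 36.4% after TAC.

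Among other genes of the pathway, the mitochondrially encoded subunits (13 genes, as a share of all UMIs) were at 0.843, 0.819 and 0.857 times sham. Nuclear UMIs of complex I stood at 15.4 per 100 mitochondrial UMIs of the same complex at sham and at 25.0, 21.6 and 19.2 in the TAC sections, and complex IV at 6.88, 11.9, 9.63 and 8.26. The 45 listed assembly factors were at 1.14, 0.966 and 1.04 times, and the 78 mitochondrial ribosome genes at 1.198, 0.985 and 1.09 times. At TAC-2w 14 of 44 assembly factors and 26 of 78 ribosome genes were higher past the fold, where 7.80% of all genes were, and 2 and 1 were lower, where 36.5% of all genes were. At TAC-4w 17 of 44 assembly factors were lower and 5 higher, against 21.5% and 17.8% of all genes, and their median ratio was 0.884. For the ribosome genes 18 of 78 were lower and 7 higher there, with a median of 0.939. The 13 genes of the tricarboxylic acid cycle were at 1.01, 0.825 and 0.853 times sham, with 8 lower and 0 higher at TAC-4w, against 21.5% and 17.8% of all genes. Cycs, the cytochrome c that carries electrons to complex IV, was at 1401, 2165, 1296 and 1401 CPM, and the ADP/ATP carrier Slc25a4 at 9118, 9320, 9114 and 7741 CPM. Of the regulators, Ppargc1a, a coactivator of mitochondrial genes, was at 76.9, 86.7, 65.8 and 67.8 CPM, Esrra, the receptor ERR alpha, at 150, 131, 114 and 120 CPM, and Tfam, the mitochondrial transcription factor, at 38.1, 46.5, 34.2 and 45.2 CPM. Esrra was below sham in each TAC section on this CPM scale, whereas Ppargc1a and Tfam were above it at TAC-2w and Tfam also at TAC-6w. In sum the 14 listed regulators were at 0.956, 0.867 and 0.931 times sham, so these 2 genes do not stand for the list. Its median ratio at TAC-2w was 0.903, where that of all genes was 0.890. Past the fold 3 were lower and 2 higher there, against 36.5% and 7.80% of all genes.

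Within a section the member share varied over a narrow range. In spots with 5000 or more UMIs its median was 15.1%, 17.96%, 14.1% and 13.6% from sham to TAC-6w, and the 90th percentile was 1.23 to 1.25 times the 10th. Within bins of equal UMIs per spot the ratio to sham was 1.09 to 1.18 at TAC-2w, 0.896 to 0.959 at TAC-4w and, for TAC-6w, 0.874 to 0.922. The direction of each section was therefore the same in every bin compared. Across spots complexes I and IV correlated with a Pearson r of 0.62 to 0.75, over 1194 to 2048 spots that share a library but differ in UMIs. The member share correlated with the UMIs of a spot with an r of 0.16 to 0.47. The part of depth in the correlation of the complexes was not tested.

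**Figure D3:**
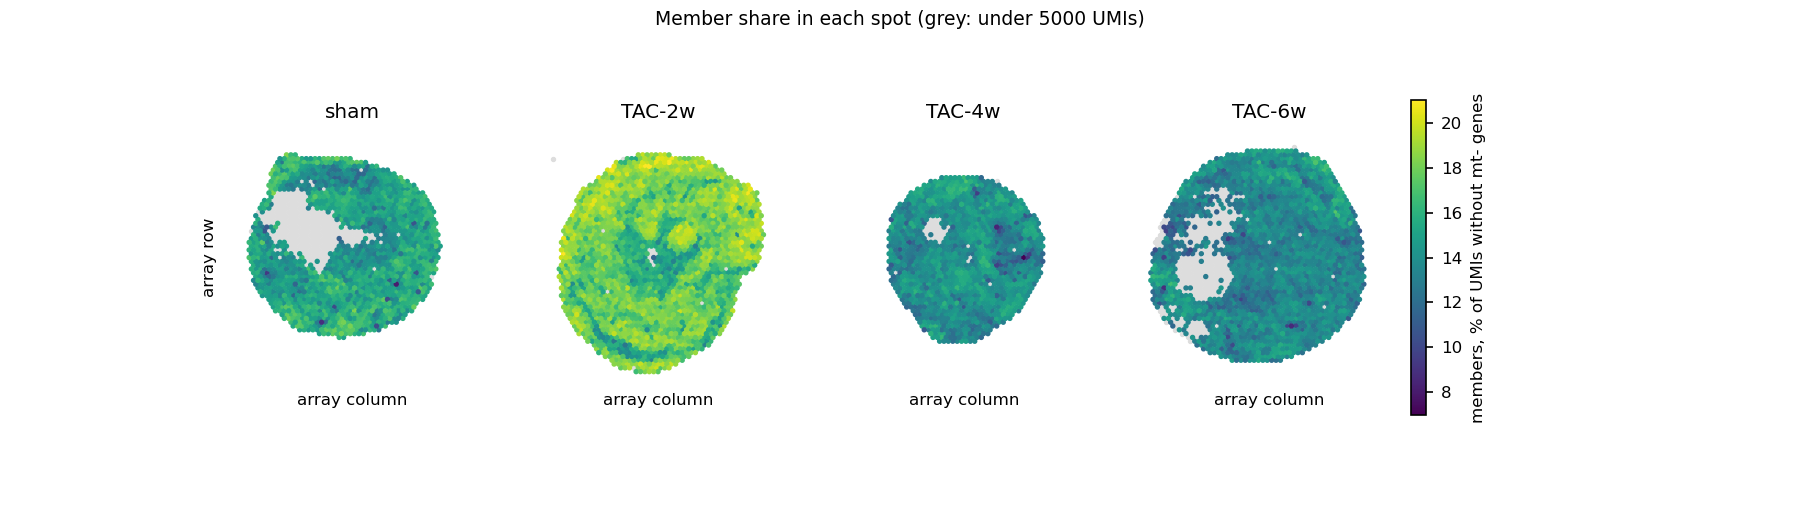
Share of member UMIs (%) among UMIs without mt- genes in each spot of the 4 sections, by array column and row, with spots under 5000 UMIs in grey. The medians are 15.1%, 17.96%, 14.1% and 13.6% in order of time.

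The tenth of spots richest in collagen UMIs (Col1a1, Col1a2 and Col3a1, genes of the fibrous matrix) had 0.899, 0.931, 0.867 and 0.908 times the member share of the other spots in the same section. In the tenth richest in Nppa, the natriuretic peptide of atria and loaded ventricles, the ratios were 0.8995, 0.8992, 0.876 and 0.915. In the tenth richest in sarcomere genes they were 1.07, 1.05, 1.07 and 1.09. Members were thus lower in collagen-rich and Nppa-rich spots and higher in sarcomere-rich spots of all 4 sections. Cox4i2 and Ndufa4l2, a relative of Ndufa4 that is not a structural subunit of complex I, went the other way with smooth muscle markers. In the tenth of spots richest in these markers Cox4i2 was at 1.70, 1.34, 1.52 and 1.72 times and Ndufa4l2 at 1.80, 1.58, 1.69 and 1.33 times the other spots, where all members together were at 0.912, 0.955, 0.898 and 0.941.

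In the libraries, 5399 to 7965 cells were kept, and their clusters were made without the members and the mt- genes and named from markers, so that the levels below did not form them. Clusters led by platelet, red blood cell, dividing cell or dendritic cell genes were left without a name. So was a cluster of 402 cells, 241 of them at TAC-4w, in which every marker list was on average below the other cells. Values are given for types with 50 or more cells in a library. Members took 15.7% (sham) and 14.5% (TAC-2w) of the UMIs of cardiomyocyte-like cells, of which 107 and 75 were kept, and 22 and 11 at TAC-4w and TAC-6w, too few to report. When each cell was named by its own marker score instead, these shares were 5.25% and 4.93%, still the highest of the types. The cardiomyocyte-like cells as clustered had a median of 2054 and 2495 UMIs, the lowest of any named type in both libraries. Their mt- share was 6.19% and 5.92%, where the sections had 42.2% to 51.5%. With no filter on cells 289 and 257 barcodes took this name, so the cells kept may not stand for the cardiomyocytes of the sections. In smooth muscle cell-like cells members took 3.15% and 3.52% (sham and TAC-2w), and in NK cell-like cells 2.17% to 2.22% over 2 libraries. Over 4 libraries the ranges were 1.71% to 2.46% in endothelial cell-like, 1.58% to 2.19% in fibroblast-like, 1.63% to 1.99% in T cell-like, 1.467% to 1.745% in macrophage-like, 1.37% to 1.56% in B cell-like and 0.751% to 1.12% in neutrophil-like cells. The cardiomyocyte-like level lay above each other type in both libraries, and that of neutrophil-like cells was the lowest in each library. The endothelial-like, fibroblast-like and T cell-like ranges overlap. Within each library the endothelial-like level lay above the fibroblast-like level, whereas the place of T cell-like cells among these types changed between libraries.

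**Figure D4:**
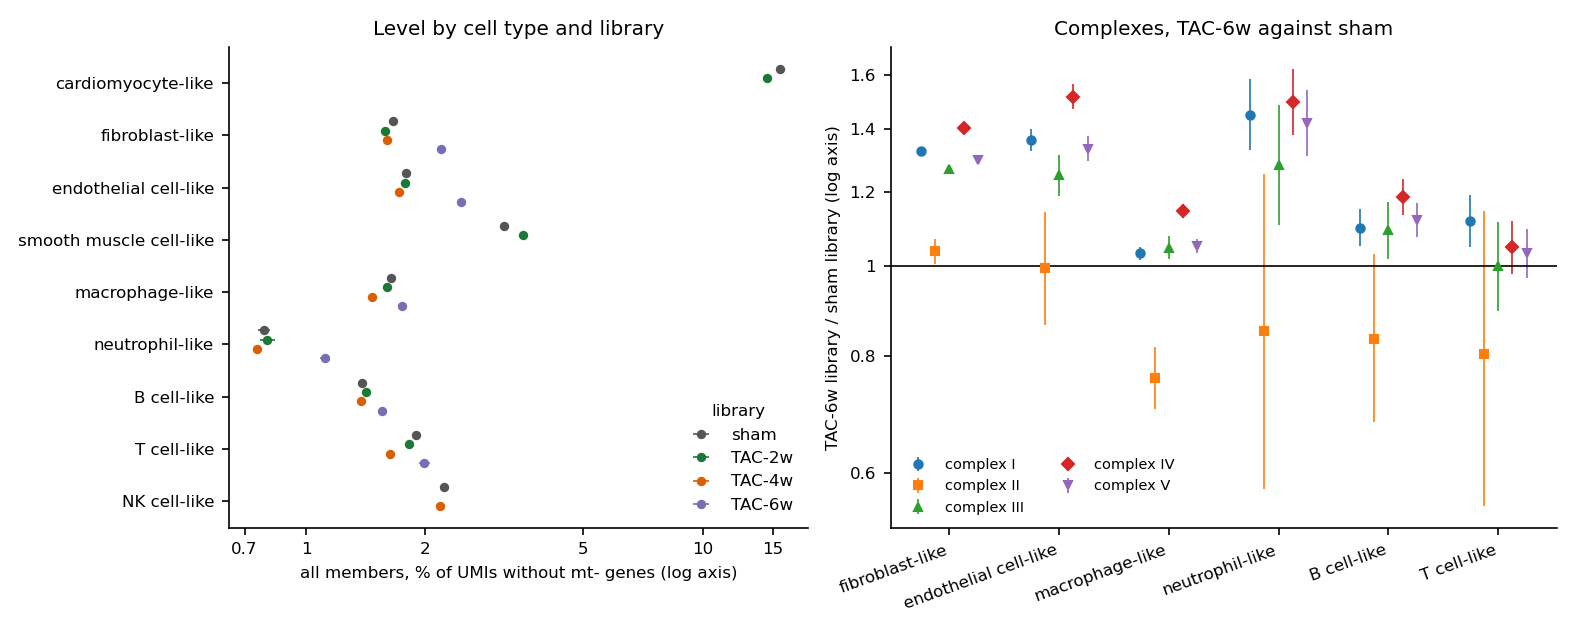
Left, members as a percentage of UMIs without mt- genes (log axis) by cell type and library with 95% counting intervals, from 14.5% to 15.7% in cardiomyocyte-like and from 0.751% to 1.12% in neutrophil-like cells. Right, ratio of the TAC-6w to the sham library by complex, with complex IV at 1.404 in fibroblast-like and 1.52 in endothelial-like cells and complex II at 0.758 in macrophage-like cells.

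The types differed in which members they favoured. In cardiomyocyte-like cells Cox8b, Cox6a2 and Cox7a1 were at 250, 230 and 194 times the level of all other cells. Cox4i2 was at 13.3 times in smooth muscle cell-like cells and 3.49 times in fibroblast-like cells, and Ndufa4l2 at 11.1 times in fibroblast-like cells and 3.69 times in smooth muscle cell-like cells. Over libraries the fibroblast-like ratios ran from 2.08 to 12.99 for Cox4i2 and from 6.67 to 120.0 for Ndufa4l2. These folds are against different sets of other cells, and the mean level of Ndufa4l2 was higher in smooth muscle cell-like cells (202 CPM over 2 libraries) than in fibroblast-like cells (99.4 CPM over 4). Endothelial-like cells led with Ndufa8 (2.68 times), an accessory subunit of complex I, T cell-like and B cell-like cells with Cox7a2l (1.46 and 1.54) and Uqcrh (1.55 and 1.51), the hinge protein of complex III, and NK cell-like cells with Ndufb7 (2.18 times). In macrophage-like and neutrophil-like cells no member with 50 or more UMIs exceeded 1.32 times.

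The muscle isoforms took larger shares of their pairs in cardiomyocyte-like cells than in each other type. Of Cox6a2 and Cox6a1 together, Cox6a2 made up 97.4% in both cardiomyocyte-like groups and 96.9%, 96.8%, 96.8% and 95.3% in the sections. In macrophage-like cells its share was 13.3%, 14.2%, 3.07% and 8.625% from sham to TAC-6w. In the other types it was 3.01% in sham fibroblast-like cells and at most 23.6%, in sham neutrophil-like cells. The neutrophil-like share at sham rests on 13 UMIs of Cox6a2 beside 42 of Cox6a1, with an interval of 13.2% to 37.0%. It was 10.3%, 1.01% and 0% in the TAC libraries. Cox7a1 made up 55.1% and 56.3% of its pair in cardiomyocyte-like cells (sham, TAC-2w) and 68.0%, 65.4%, 57.6% and 66.5% in the sections. Cox8b made up 65.0% and 61.7% in these cells and 89.3%, 87.3%, 88.0% and 85.4% in the sections. The section share of Cox7a1 was lowest at TAC-4w and that of Cox6a2 and Cox8b at TAC-6w. Free RNA of cardiomyocytes can give muscle isoform UMIs in other cells. Per 1000 UMIs of 6 cardiomyocyte genes, sham cardiomyocyte-like cells had 55.1 Cox6a2, 46.7 Cox7a1 and 34.1 Cox8b UMIs. Sham fibroblast-like cells had 54.9, 97.9 and 43.2, and TAC-6w fibroblast-like cells 161, 232 and 136. Macrophage-like cells had 79.7, 63.4 and 36.5 at sham and 113, 128 and 88.5 at TAC-6w. The 6 cardiomyocyte genes were at 374, 417, 52.3 and 179 CPM in macrophage-like cells from sham to TAC-6w. The part of free RNA in these shares was not tested.

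Cox4i2 and Ndufa4l2 had the opposite pattern. Cardiomyocyte-like cells had 0 Cox4i2 UMIs beside 1426 (sham) and 1107 (TAC-2w) of Cox4i1, which allows a share of up to 0.258% and 0.333%, and 0 and 3 UMIs of Ndufa4l2. In smooth muscle cell-like cells Cox4i2 made up 12.9% and 16.0% of its pair and Ndufa4l2 21.8% and 23.7%. In fibroblast-like cells Ndufa4l2 made up 21.4%, 23.7%, 29.1% and 25.8% and Cox4i2 2.92%, 3.90%, 7.21% and 3.16% over the 4 libraries. In the sections these shares were 0.662%, 0.435%, 0.551% and 0.811% for Cox4i2 and 1.49%, 1.11%, 1.395% and 2.00% for Ndufa4l2. Cox6b2, a testis form of subunit 6b, was at 0.285%, 0.211%, 0.226% and 0.116% of its pair in the sections, from 60 to 148 UMIs, and its CPM at TAC-6w was 0.425 times sham (0.295 to 0.612). The smooth muscle markers were at 0.712, 0.760 and 0.925 times sham in the TAC sections, and the fibroblast markers in sum at 0.860, 1.06 and 1.45 times. At TAC-4w the sum does not stand for most of the 6 fibroblast markers. Their median ratio there was 0.674, with 4 lower and 1 higher past the fold, against 21.5% and 17.8% of all genes. The part of these markers in the isoform shares was not tested.

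**Figure D5:**
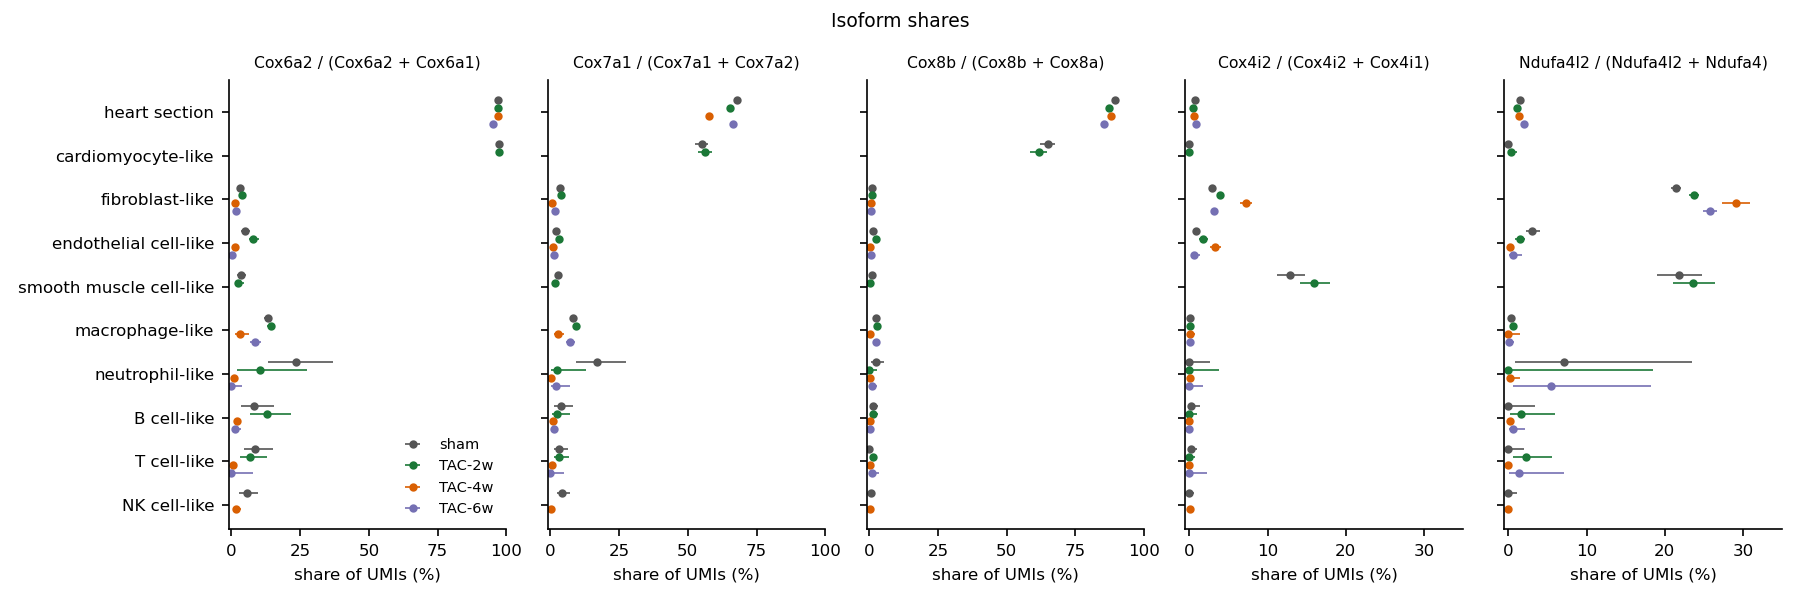
Share (%) of 1 isoform in the summed UMIs of its pair, for the heart sections and each cell type with 95% counting intervals, coloured by group. Cox6a2 is at 97.4% in cardiomyocyte-like cells, and Cox4i2 and Ndufa4l2 reach 16.0% and 23.7% in smooth muscle cell-like cells.

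The use of the subunit c genes also differed by type. Atp5g1 made up 70.6% to 70.8% of the 3 genes in cardiomyocyte-like cells, Atp5g2 60.0% to 64.0% in B cell-like cells and Atp5g3 31.8% to 35.8% in smooth muscle cell-like cells. Each is the highest share of that gene among the types. In smooth muscle cell-like cells Atp5g3 did not lead, as Atp5g2 had 35.1% to 37.6% and Atp5g1 26.6% to 33.0%. In the sections Atp5g3 was the largest at sham, with 52.9%, whereas in cardiomyocyte-like cells it had 14.8% to 15.0%. Sections and libraries were prepared and counted separately, and the difference between them was not tested.

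TAC-2w and sham cardiomyocyte-like cells, which carry different batch labels, were compared for 79 members. Their ratio was 0.925 in sum (0.914 to 0.937), opposite in direction to the sections, and the median was 0.931 where that of all genes was 0.960. The sections hold all cell types and were not filtered by mitochondrial share, and the part of this in the opposite direction was not tested. Past the fold 8 of the 79 members were lower and 0 higher, against 13.1% and 10.1% of all genes. The share of lower members was thus not above that of all genes. Cox8a was at 1049 and 1117 CPM in sham and TAC-2w, Cox8b at 1945 and 1800, Atp5g1 at 7698 and 6967 and Sdhd at 425 and 469. The intervals of the ratios of Cox8a, Cox8b and Sdhd all span 1, and that of Atp5g1 (0.905, 0.856 to 0.957) does not.

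Between TAC-6w and sham, libraries of 1 batch, the summed level of the members was higher in fibroblast-like cells (1.33 times, 1.32 to 1.33), endothelial-like cells (1.37, 1.353 to 1.397), neutrophil-like cells (1.43, 1.37 to 1.49), B cell-like cells (1.12, 1.098 to 1.151), macrophage-like cells (1.06, 1.05 to 1.07) and T cell-like cells (1.05, 1.02 to 1.09), the last of which turned to 0.974 with cells named by their own marker score and to 0.977 with no filter on cells. In fibroblast-like cells 52 of 84 members were higher and 7 lower past the fold, against 20.2% and 35.7% of all genes, and in endothelial-like cells 51 of 78 were higher and 4 lower, against 26.1% and 38.9%. In macrophage-like cells the counts did not follow the sum, as 13 of 81 members were higher and 18 lower, against 12.2% and 44.8% of all genes, and the median ratio was 0.981 over the members and 0.865 over all genes. In neutrophil-like cells 13 of 15 members counted were higher and 0 lower, against 34.5% and 37.3%. Few members had enough UMIs to be counted there. A member near the minimum can enter because it was high in 1 of the libraries. The median ratio of the 15 was 1.59, where the sum over all members was at 1.43 times. The shares of all genes have the same minimum, but the count does not stand for the members left out. In B cell-like cells 25 of 61 were higher and 9 lower, against 13.5% and 45.3%, and in T cell-like cells 11 of 45 were higher and 6 lower, against 14.6% and 35.9%. Complex II was nearer to sham or below it, at 1.04 in fibroblast-like (1.004 to 1.069), 0.994 in endothelial-like and 0.758 in macrophage-like cells (0.702 to 0.818), and its intervals spanned 1 in endothelial-like, neutrophil-like, T cell-like and B cell-like cells. In fibroblast-like cells Atp5k, a membrane subunit of ATP synthase, was at 150, 147, 155 and 373 CPM and Ndufa3, an accessory subunit of complex I, at 103, 98.1, 113 and 228 CPM, genes chosen after their values were seen. The median UMI count of a fibroblast-like cell was 10566 at sham and 6208 at TAC-6w. It was also lower at TAC-6w in endothelial-like (5096 and 3652.5), macrophage-like (7334.5 and 3666) and neutrophil-like cells (2453 and 1444). The same held for B cell-like (3068 and 1902) and T cell-like cells (4727.5 and 2659). The mt- share was lower at TAC-6w in each of these types, from 5.60% to 5.31% in endothelial-like and from 2.66% to 0.730% in neutrophil-like cells. The part of depth in these ratios was not tested. At TAC-2w the fibroblast-like, endothelial-like and macrophage-like ratios were 0.954, 0.994 and 0.974. At TAC-4w these were 0.968, 0.957 and 0.894. T cell-like, neutrophil-like, B cell-like and NK cell-like cells were at 0.863, 0.960, 0.990 and 0.977 there. Only the fibroblast-like and T cell-like ratios at TAC-4w kept their direction under every setting. In T cell-like cells 26 of 74 members were lower and 8 higher past the fold at TAC-4w, against 16.4% and 35.2% of all genes. The TAC-2w and TAC-4w libraries carry other batch labels than sham.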

How the data were processed

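The deposited files are raw UMI counts, which the authors obtained per gene for each spot (Space Ranger) or cell barcode (Cell Ranger), with no normalization. The file headers name spaceranger 1.2.0 and cellranger 6.0.0, whereas the submitters' processing notes name Space Ranger 1.3.1, Cell Ranger 7.0.0 and mm10. The counting was 3′ based, with 1 count a molecule and no correction for length. The labels describe nuclei and the methods dissociated cells, and this difference was not settled here. Values were computed with Seurat 5.3.0 in R 4.3.3 and, in Python 3.11.15, with scanpy 1.11.5, pandas 2.3.3, scipy 1.17.1 and numpy 2.4.6, and plotted with matplotlib 3.10.9.

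Sections were summed over all spots. Cells were kept where the mitochondrial share was under 15%, the UMIs 500 to 30000 and the genes 200 to 6000, and the 3.2% of highest Scrublet scores (expected rate 7%) were removed from each library. Clusters came from 30 components of 3000 variable genes at a resolution of 0.25, without members and mt- genes, and were named from the markers listed for 9 cell types. Levels have exact Poisson intervals, ratios exact conditional binomial intervals and shares Clopper-Pearson intervals, at 95%. The ratio interval was also checked on simulated counts. With 1 sample a group no test was made. A gene is past the fold at 1.2 or more, among genes with 100 or more UMIs. Named genes are the 5 largest and 5 smallest ratios of each section, the most abundant member of each complex, the isoform pairs, complex II, Cyc1, members under 100 UMIs and up to 3 leading members of each cell type. Some values on genes of complex I are not reported here. The members and gene lists were chosen with earlier results of these data known.

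Alternatives were all features in the total, haemoglobin and rRNA-like features left out, a scale relative to sarcomere genes, a mean over spots, spots of 10000 to 30000 UMIs, other sets of members, a fold of 1.5, a minimum of 20 UMIs, and other filters, clusterings and namings of cells. Spots rich in sarcomere genes were added after seeing the data.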

Additional observations from a re-analysis of the deposited data

Results flagged for a closer look

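These results are listed because ratios to sham went in opposite directions between groups, and none of these differences was tested. The summed level of the members in the sections was 1.18 times sham at TAC-2w, but 0.922 times at TAC-4w and 0.899 times at TAC-6w, and the later pair has other batch labels and turns with the scaling. At TAC-2w the members were at 0.925 times sham in cardiomyocyte-like cells, below 1, and at 1.12 times in smooth muscle cell-like cells, above 1. At TAC-6w the members were at 1.33 times sham in fibroblast-like, 1.37 times in endothelial cell-like and 1.43 times in neutrophil-like cells, in libraries of 1 batch. The median UMIs per cell of these types were lower at TAC-6w than at sham, and the part of depth was not tested. In the same comparison complex II was at 0.758 times in macrophage-like, 0.835 times in B cell-like and 0.804 times in T cell-like cells, and of these 3 intervals only that in macrophage-like cells lies wholly below 1.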

How the results depend on the processing

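No paired analysis was possible because each group had a single sample and no test was made, and for the same reason no replicate could be left out. At TAC-2w the summed level of the members stayed above sham in all alternatives, at 1.37 with all features in the total, 1.27 relative to sarcomere genes, 1.172 in spots of 10000 to 30000 UMIs, 1.189 without the most abundant member of each complex and 1.160 in spots rich in sarcomere genes. For TAC-4w these values were 1.10, 1.26, 0.912, 0.920 and 0.916, with 0.906 when haemoglobin and rRNA-like features were left out and 0.929 as a mean over spots. For TAC-6w they were 1.04, 1.03, 0.885, 0.909 and 0.903, with 0.891 and 0.895. With all features in the total complexes I to V were at 1.10, 1.05, 1.06, 1.16 and 1.06 at TAC-4w (5 above sham, where none was), and complexes I, III, IV and V at 1.07, 1.07, 1.02 and 1.01 at TAC-6w (4 above). Relative to sarcomere genes they were at 1.26, 1.203, 1.21, 1.33 and 1.21 at TAC-4w (5 above) and at 1.06, 1.06, 1.01 and 1.00 at TAC-6w (4 above, with complex V about level with sham). With Ndufa4 counted in complex IV, 12 of the 15 ratios of a complex to sham stayed within their intervals, 3 moved and 0 turned. Members higher at TAC-2w numbered 69 with all features, 65 relative to the median gene and 4 at a fold of 1.5, and lower ones 0 at that fold. At TAC-4w 3 were lower and 24 higher with all features, 13 were lower relative to the median gene, and 0 were lower and 0 higher at a fold of 1.5. At TAC-6w 0 were lower and 8 higher with all features, 26 were lower relative to the median gene, and 0 were lower and 0 higher at a fold of 1.5. The shares of all genes under these settings were not counted. These counts therefore show how the calls depend on the setting and are not a result particular to the members. The member share of sham cardiomyocyte-like cells was 15.3% with doublets kept, 15.2% with no filter on cells, 14.7% with all features and 5.25% when each cell was named by its own marker score, where the Cox8b share was 49.9%. Ratios that turned in cells were those of endothelial cell-like cells at TAC-2w (1.002, by marker score) and TAC-4w (1.009, mitochondrial share under 5%), macrophage-like cells at TAC-4w (1.152, marker score), neutrophil-like cells at TAC-4w (1.09, no filter), B cell-like cells at TAC-4w (1.003, all features), NK cell-like cells at TAC-4w (1.01, marker score) and T cell-like cells at TAC-6w (0.974, marker score, and 0.977, no filter). The cause of these changes was not tested. Depth limits the small groups of cells, such as the 107 and 75 cardiomyocyte-like cells and the 70 neutrophil-like cells of TAC-2w.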
